A study of Drosophila melanogaster with 8 samples.

Results

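The 6 heterodimeric amino acid transporter genes of Drosophila melanogaster were described in ventral nerve cords of wit mutant larvae and of control larvae. They are the heavy chain gene CD98hc and the 5 light chain genes CG1607, sbm (sobremesa), JhI-21, mnd (minidiscs) and gb (genderblind). They were selected on family membership by gene name, with their CPM and log2 fold changes between mutants and controls in these 8 libraries already known, and each of the 6 matched 1 of the 14175 gene identifiers in the deposited tables. Their values between the genotypes, and the calls of the fit across all genes, are therefore given as a description of these libraries and not as independent tests.

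A heterodimeric amino acid transporter joins a heavy chain, a glycoprotein that crosses the membrane once and brings the complex to the cell surface, to a light chain, which carries the amino acids. In mammals the light chains that pair with CD98 exchange large neutral amino acids such as leucine, or take up cystine in exchange for glutamate. Intracellular leucine in turn is a signal read by the TOR kinase complex, which sets protein synthesis and growth. In Drosophila gb has been described as a glial cystine and glutamate exchanger that affects extracellular glutamate, sbm acts in glia in the timing of development and brain growth, mnd and JhI-21 carry leucine in insulin-producing cells, and mnd is needed for imaginal disc growth.

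Mutants carried witA12 over witB11, each on a chromosome marked with st1, and controls carried witA12, st1 over a wild-type chromosome. Both groups were female larvae at the wandering stage of the last instar of a w1118 background grown at 25 °C with 80 larvae per vial, so the control animals also carried 1 mutant wit allele and 1 copy of st1. The gene wit encodes a type II BMP receptor, and the comparison asks which nerve cord transcripts depend on it. Brain lobes had been cut away, and each of the 4 libraries per genotype pooled 25 nerve cords, so a value is an average over 25 animals and over all cells of the cord. The allele pair makes the whole animal mutant, and beyond wit the genotypes differ in the rest of the exchanged copy of chromosome 3.

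Libraries held 20923717 to 32028719 estimated counts in mutants and 26746219 to 32740480 in controls. No member was near the detection limit, with 1006 to 11524 counts per gene and library, where 3 counts correspond to 0.0916 to 0.143 CPM (counts scaled to a total of 1000000). The wit transcript was at 86.8 ± 3.97 CPM in mutants and 90.6 ± 3.43 CPM in controls (SD, n = 4 each), a level that checks no genotype here because the lesions of the alleles are not described in the labels. Markers of neurons and glia were abundant, with summed levels of 4017 to 4553 CPM in mutants and 4976 to 5203 CPM in controls for 7 neuronal genes, and of 1409 to 1675 CPM in mutants and 1907 to 1950 CPM in controls for 10 glial genes. The glial gene with the largest difference in CPM was Gs2, at 285 ± 99.0 CPM in mutants and 568 ± 7.31 CPM in controls (SD, n = 4 each). The insulin-like peptide genes Ilp2, Ilp3 and Ilp5, which mark the insulin-producing cells of the removed lobes, summed to 0.0947 to 0.216 CPM in mutants and 0.178 to 0.301 CPM in controls.

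The heavy chain gene and 3 of the 5 light chain genes were lower in wit mutants, while mnd and gb did not pass the test. CG1607 was lower by 49.8%, the largest difference among the members, and CD98hc, sbm and JhI-21 were lower by 23.8%, 24.2% and 19.0%. The call was made at an adjusted p under 0.05 by edgeR's quasi-likelihood test over 9176 genes, of which 14.8% were called in either direction, 8.66% lower and 6.12% higher in mutants. All 6 members passed the filter on low counts, 4 were called and all 4 were lower. Mutant and control libraries did not overlap for 5 members, 4 of them lower and 1 higher, against 20.5% of all tested genes in either direction, 11.7% lower and 8.82% higher in mutants. As this contrast was known when the members were chosen, nothing is read from these counts. In nerve cords measured in bulk, fewer cells of a type and less RNA per cell cannot be told apart.

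CD98hc (FBgn0037533, chromosome 3R, 7974409 to 7978428, minus strand) encodes the heavy chain shared by the light chains. Mutant libraries 1 to 4 held 295.1, 260.7, 282.0 and 265.4 CPM, against 351.0, 374.7, 364.8 and 357.9 CPM in control libraries 1 to 4. Every mutant library lay below every control library, with a gap of 55.9 CPM between the nearest pair. The mean was 276 ± 15.8 CPM in mutants and 362 ± 10.1 CPM in controls (SD, n = 4 each). In the fit CD98hc had -0.39 as log2 fold change (SE 0.04, 95% interval -0.49 to -0.30, edgeR adjusted p = 0.000111).

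CG1607 (FBgn0039844, chromosome 3R, 31382109 to 31391893, plus strand) encodes a light chain related to the mammalian transporters of large neutral amino acids. Mutant libraries held 150.9, 123.0, 140.8 and 116.4 CPM, against 248.8, 280.8, 266.9 and 261.1 CPM in control libraries. The groups stood 97.8 CPM apart at their nearest libraries, the widest gap among the members. Means were 133 ± 15.9 CPM in mutants and 264 ± 13.3 CPM in controls (SD, n = 4 each), with a log2 fold change of -0.99 (SE 0.08, 95% interval -1.17 to -0.82, edgeR adjusted p = 2.71e-05). Among the 9176 tested genes 129 had a lower log2 fold change, and 109 of those were called.

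The light chain gene sbm (FBgn0030574, chromosome X, 14584733 to 14602580, minus strand) is also related to the large neutral amino acid transporters. Its levels were 333.9, 282.8, 280.3 and 261.6 CPM in mutant libraries 1 to 4, against 387.2, 408.9, 371.6 and 361.0 CPM in control libraries 1 to 4. All mutant libraries were below all controls, and mutant library 1 stood above the other mutants. The mean was 290 ± 31.0 CPM in mutants and 382 ± 20.8 CPM in controls (SD, n = 4 each). The fitted log2 fold change was -0.40 (SE 0.07, 95% interval -0.56 to -0.24, edgeR adjusted p = 0.00398).

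JhI-21 (FBgn0028425, chromosome 2L, 12051755 to 12056042, minus strand), first isolated as a transcript induced by juvenile hormone, was the least abundant member. It was at 47.7, 40.8, 43.7 and 42.1 CPM in mutant libraries and at 52.2, 57.0, 50.2 and 55.7 CPM in control libraries. The groups did not overlap, but their nearest libraries differed by only 2.54 CPM, less than the SD within either genotype. Means were 43.6 ± 2.98 CPM in mutants and 53.8 ± 3.13 CPM in controls (SD, n = 4 each), with a log2 fold change of -0.30 (SE 0.06, 95% interval -0.43 to -0.18, edgeR adjusted p = 0.0038). JhI-21 and PLCXD (FBgn0032402), a gene on the opposite strand, share 295 bp where their annotated 3′ ends meet. PLCXD was at 28.5 ± 2.18 CPM in mutants and 20.8 ± 0.82 CPM in controls (SD, n = 4 each) and was higher in mutants (log2 fold change 0.46, SE 0.06, edgeR adjusted p = 0.000249). The libraries were stranded, but the sources used here do not state whether counting used the strand, so reads in the shared stretch cannot be assigned with certainty.

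The light chain gene mnd (FBgn0002778, chromosome 3L, 14985100 to 14991667, plus strand) did not pass the test. Mutant libraries held 109.2, 106.6, 112.6 and 108.2 CPM, against 102.8, 103.7, 99.8 and 102.5 CPM in control libraries. Every mutant library was above every control library, with 2.84 CPM between the nearest pair. The mean was 109 ± 2.54 CPM in mutants and 102 ± 1.698 CPM in controls (SD, n = 4 each), with a log2 fold change of 0.09 (SE 0.03, 95% interval 0.02 to 0.17, edgeR adjusted p = 0.0717). The interval is for this gene alone, whereas the adjusted p allows for all genes tested.

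For gb (FBgn0039487, chromosome 3R, 27108467 to 27112270, minus strand), the cystine and glutamate exchanger, the genotypes overlapped. Mutant libraries held 99.5, 93.4, 98.1 and 91.6 CPM, and control libraries held 95.3, 100.7, 92.5 and 99.2 CPM. The mean was 95.7 ± 3.77 CPM in mutants and 96.9 ± 3.73 CPM in controls (SD, n = 4 each). The fitted log2 fold change of gb, -0.02 (SE 0.04), had an edgeR adjusted p = 0.788, and its 95% interval of -0.11 to 0.07 does not reach the differences of the 4 called members.

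**Figure D1:**
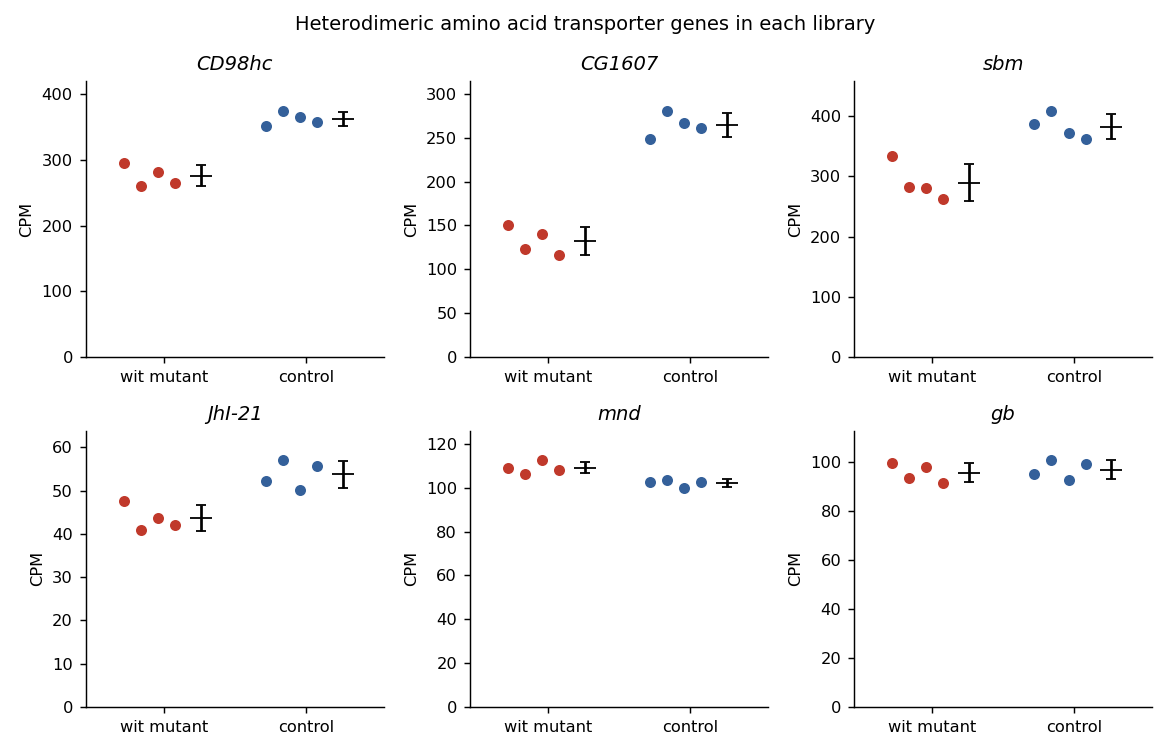
Level of each member in each library, in CPM on a linear axis from 0, with points for the 4 wit mutant (left, red) and 4 control (right, blue) libraries and a black mark for the mean with its SD. Mutant points lie below all control points for CD98hc, CG1607, sbm and JhI-21, above them for mnd by 2.84 CPM at the nearest pair, and among them for gb.

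Mutant library 1 was the highest mutant library for 5 of the 6 members, with mnd as the exception, and mutant libraries 2 and 4 were each the lowest for 3. Control library 2 was the highest control library for all 6. The coefficient of variation among mutants was 11.96% for CG1607, 10.7% for sbm and 2.33% for mnd, against 5.03%, 5.45% and 1.66% among controls for the same genes. Leaving out mutant library 1 moved the log2 fold change of CG1607 to -1.06 and that of sbm to -0.48, and every member called with all 8 libraries was also called with any 1 library left out.

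Levels can be compared between genes only per length, so CPM was divided by the mean length of each gene's annotated transcripts, from 2133 bp for JhI-21 to 3348 bp for sbm. In mutants CD98hc was at 127 ± 7.24 CPM per kb, sbm at 86.5 ± 9.26, mnd at 47.4 ± 1.103, CG1607 at 44.4 ± 5.31, gb at 39.5 ± 1.55 and JhI-21 at 20.4 ± 1.40 (SD, n = 4). In controls CD98hc was at 166 ± 4.64 CPM per kb, sbm at 114 ± 6.22, CG1607 at 88.5 ± 4.45, mnd at 44.4 ± 0.737, gb at 39.96 ± 1.54 and JhI-21 at 25.2 ± 1.47 (SD, n = 4). In mutants the CG1607 libraries (39.0 to 50.5 CPM per kb) overlapped those of both mnd (46.2 to 48.9) and gb (37.8 to 41.1). In controls no neighbours in this order overlapped, and the ratio of CG1607 to mnd per kb was 0.830 to 1.07 in mutant libraries and 1.87 to 2.09 in control libraries.

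Among the 25 amino acid transporter genes listed here, the members ranked from 2 to 12 per kb in mutants and from 2 to 13 in controls. Of these 25 genes, 1 cationic transporter gene and 5 of the SLC36, SLC1 and SLC6 families averaged under 1 CPM. CD98hc ranked 2 and sbm ranked 3 per kb in both genotypes, below path, an SLC36-type transporter gene. CG1607 ranked 8 in mutants and 4 in controls, and mnd ranked 6 in mutants and 8 in controls. In both genotypes gb ranked 9, and JhI-21 ranked 12 in mutants and 13 in controls.

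The mix of light chains differed between the genotypes, while the ratio of the heavy chain to their sum differed by less than the spread between libraries. Summed over the 5 genes, light chains were at 238 ± 17.1 CPM per kb in mutants and 312 ± 11.5 CPM per kb in controls (SD, n = 4 each). CG1607 made up 59.5% of this difference, sbm 37.4%, JhI-21 6.46% and gb 0.689%, while mnd, higher in mutants, counted against it with -4.06%. The share of CG1607 in the light chain sum was 19.4%, 17.9%, 19.6% and 17.6% in mutant libraries 1 to 4, against 27.1%, 28.5%, 29.3% and 28.5% in control libraries. The share of mnd was 19.95% ± 1.28 in mutants and 14.2% ± 0.40 in controls, and that of gb was 16.6% ± 0.59 in mutants and 12.8% ± 0.373 in controls (SD, n = 4 each). These 3 shares did not overlap between the genotypes, whereas the share of sbm, at 36.3% ± 1.56 in mutants and 36.6% ± 1.07 in controls, and that of JhI-21, at 8.58% ± 0.241 in mutants and 8.07% ± 0.338 in controls, did. A share rises where the others fall, so the larger shares of mnd and gb are not separate from the smaller share of CG1607.

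The ratio of CD98hc to the summed light chains per kb was 0.519, 0.521, 0.538 and 0.550 in mutant libraries 1 to 4, and 0.524, 0.522, 0.548 and 0.535 in control libraries 1 to 4. Its mean of 0.532 ± 0.0145 in mutants differed from the mean of 0.532 ± 0.0121 in controls by less than either SD (n = 4 each). These are transcript levels, and the pairing of chains as proteins was not measured.

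**Figure D2:**
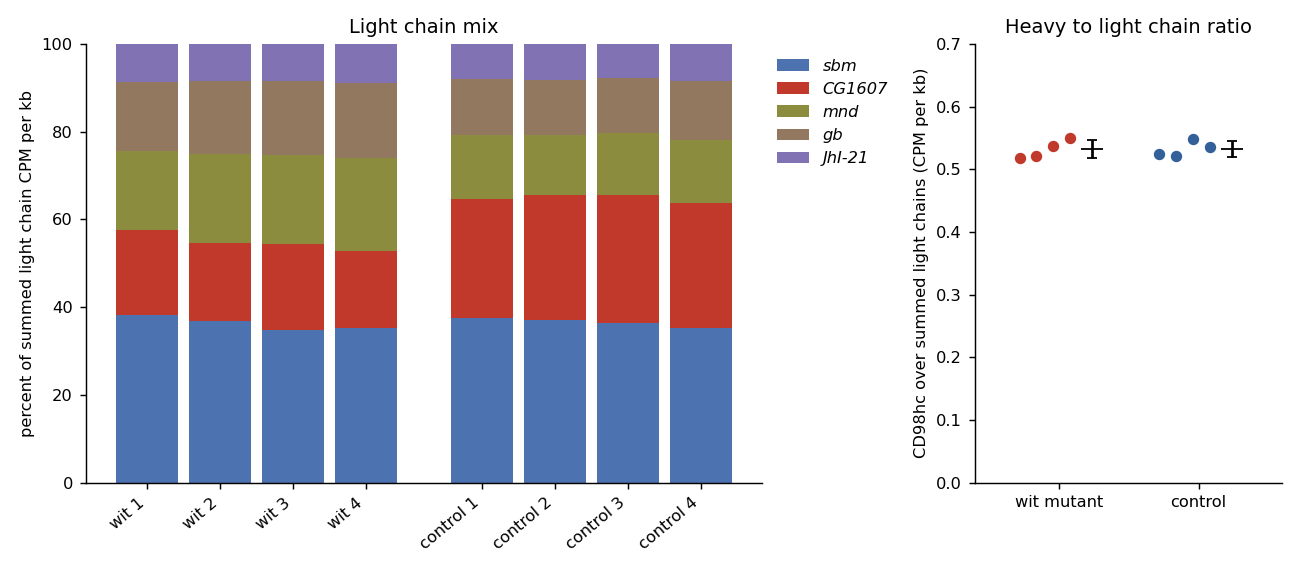
Left, the share of each light chain gene in the summed light chain level (percent of CPM per kb) in each of the 4 wit mutant and 4 control libraries, stacked to 100%. Right, the ratio of CD98hc to the summed light chains in each library with mean and SD. The CG1607 share averaged 18.6% in mutants and 28.3% in controls, and the ratio averaged 0.532 in both.

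Across all tested genes of chromosome 3, which carries the wit alleles and st1, 15.2% were called, against 14.4% of those on other chromosomes. Of the called members CD98hc and CG1607 lie on chromosome 3, sbm on X and JhI-21 on 2L. Variants of the exchanged chromosome may act on genes of any chromosome, so for all 4 a difference due to wit and one due to such variants cannot be told apart.

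The called genes among the other amino acid transporters were mostly lower in mutants. Of the 4 tested genes of the cationic branch of the same SLC7 family, 1 was lower, CG13248, at 75.3 ± 3.34 CPM in mutants and 94.3 ± 1.58 CPM in controls (log2 fold change -0.32, edgeR adjusted p = 0.000155). The arginine transporter gene slif (slimfast), which acts in nutrient sensing in the fat body, had 0.08 (edgeR adjusted p = 0.684), and the median over the 4 genes was -0.17, against 0.01 over all tested genes. Of 10 tested genes of the SLC36, SLC1 and SLC6 families, 3 were lower and 1 was higher, with a median log2 fold change of -0.02. The gene path (pathetic), an SLC36-type transporter needed for the growth of large neurons, was at 444 ± 38.1 CPM in mutants and 594 ± 35.6 CPM in controls (log2 fold change -0.42, SE 0.06, edgeR adjusted p = 0.00106).

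The other 3 called transporter genes of these families lost their calls when 1 library was left out. Eaat1, the glial glutamate transporter gene, had a log2 fold change of -0.21 (edgeR adjusted p = 0.0222), and missed the threshold without control replicate 2 or 3 or wit replicate 2 or 4 (0.0508 to 0.0768). CG7888, of the SLC36 type, had -0.68 (0.0305) and missed it without any 1 control replicate or wit replicate 2 (0.0531 to 0.0797). The SLC36-type gene acs (arcus, chosen after its value was seen) had 0.54 (0.0485) and missed it without any 1 library other than wit replicate 1 (0.0770 to 0.130). Eaat2, the other listed gene of the SLC1 family, had -0.02 (edgeR adjusted p = 0.784).

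**Figure D3:**
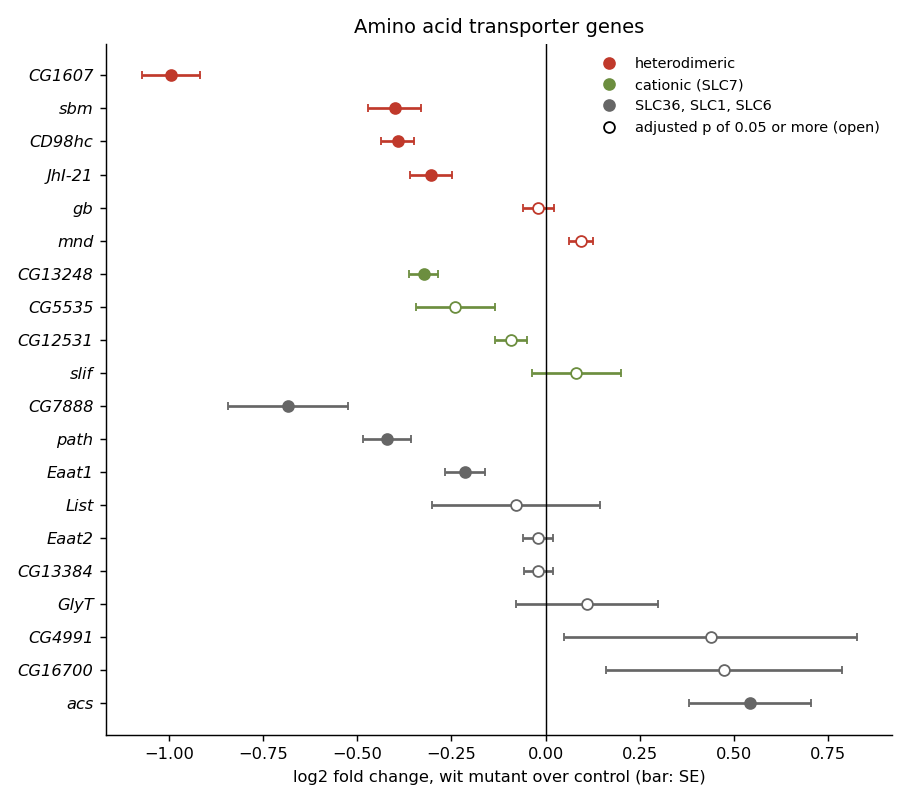
Log2 fold change (wit mutant over control) with its SE for each tested amino acid transporter gene, coloured by family, with filled points for an adjusted p under 0.05. CG1607 has the lowest value, -0.99, and CD98hc, sbm and path lie together between -0.42 and -0.39.

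Of 21 tested genes of the TOR pathway and of amino acid sensing, 1 was lower and 0 were higher, with a median log2 fold change of 0.02. S6k, the gene of the S6 kinase and the other gene of the 22 listed, was not analysed here. The kinase gene mTor was at 177 ± 8.57 CPM in mutants and 175 ± 4.67 CPM in controls (log2 fold change 0.02, edgeR adjusted p = 0.794). The gene Wdr24, which encodes a subunit of the GATOR2 complex that conveys amino acid supply to TOR, was at 12.9 ± 0.447 CPM in mutants and 14.9 ± 0.326 CPM in controls (log2 fold change -0.21, edgeR adjusted p = 0.0282), and missed the threshold without control replicate 2, 3 or 4 or wit replicate 2 or 4 (0.0525 to 0.0755). The leucine sensor gene Sesn had 0.08 (edgeR adjusted p = 0.769) and the translation inhibitor gene Thor had 0.55 (0.336). Sesn, Thor and mTor were chosen after their values were seen. Sesn and Thor are also counted among the 13 tested genes of the amino acid stress response.

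In the amino acid stress response, 1 of 13 tested genes was higher and 1 lower, with a median log2 fold change of 0.02, and the asparagine synthetase gene AsnS, the other gene of the 14 listed, was not analysed here. The gene crc (cryptocephal) encodes the Drosophila ATF4, a transcription factor whose mammalian counterpart activates heavy and light chain transporter genes when amino acids are short. It was higher in mutants, at 641 ± 33.1 CPM against 543 ± 24.2 CPM in controls (log2 fold change 0.24, SE 0.05, edgeR adjusted p = 0.00601). The activity of the ATF4 protein was not measured, and its part in the transporter levels was not tested. The phosphoserine phosphatase gene aay had -0.33 (0.0467) and missed the threshold without any 1 control replicate or without wit replicate 2 or 4 (0.0501 to 0.116). The kinase gene Gcn2, which senses uncharged tRNA, had 0.08 (edgeR adjusted p = 0.179).

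Of 9 tested genes for cystine, glutathione and glutamate, the substrates of gb and their products, 4 were lower and 0 higher, with a median log2 fold change of -0.10. Gdh, the glutamate dehydrogenase gene, was at 268 ± 33.0 CPM in mutants and 348 ± 4.21 CPM in controls (log2 fold change -0.38, SE 0.07, edgeR adjusted p = 0.00738). Gclc, the catalytic subunit gene of glutathione synthesis, had -0.35 (0.0270), and missed the threshold without control replicate 2, 3 or 4 or wit replicate 4 (0.0661 to 0.0832). The glial glutamine synthetase gene Gs2 ranged from 183 to 418 CPM over mutants and from 557 to 574 CPM over controls (log2 fold change -0.995, edgeR adjusted p = 0.0355), with mutant library 1 highest, and missed it without any 1 control replicate or without wit replicate 2 or 3 (0.0669 to 0.0893). The cystathionine gamma-lyase gene Cth, chosen after its value was seen, had -0.15 (0.0469) and missed it without any 1 library other than wit replicate 1 (0.0672 to 0.134). Counts of Gss1 and Gss2, near-identical neighbours, were the same in all libraries and are uncertain for either. Both enter the 9 tested genes and the median, although they hold the same values.

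Of 4 tested genes of branched-chain amino acid breakdown 0 passed edgeR's test (median log2 fold change -0.11), with 1 at an unadjusted p under 0.05, 0 called by DESeq2 and 1 by limma-voom. Of 9 tested juvenile hormone genes 0 passed edgeR's test (median -0.01), with 3 at an unadjusted p under 0.05, 0 called by DESeq2 and 3 by limma-voom. JhI-21 was lower in mutants, and Kr-h1, a transcription factor gene induced by juvenile hormone, had 0.16 (edgeR adjusted p = 0.154), chosen after its value was seen.

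**Figure D4:**
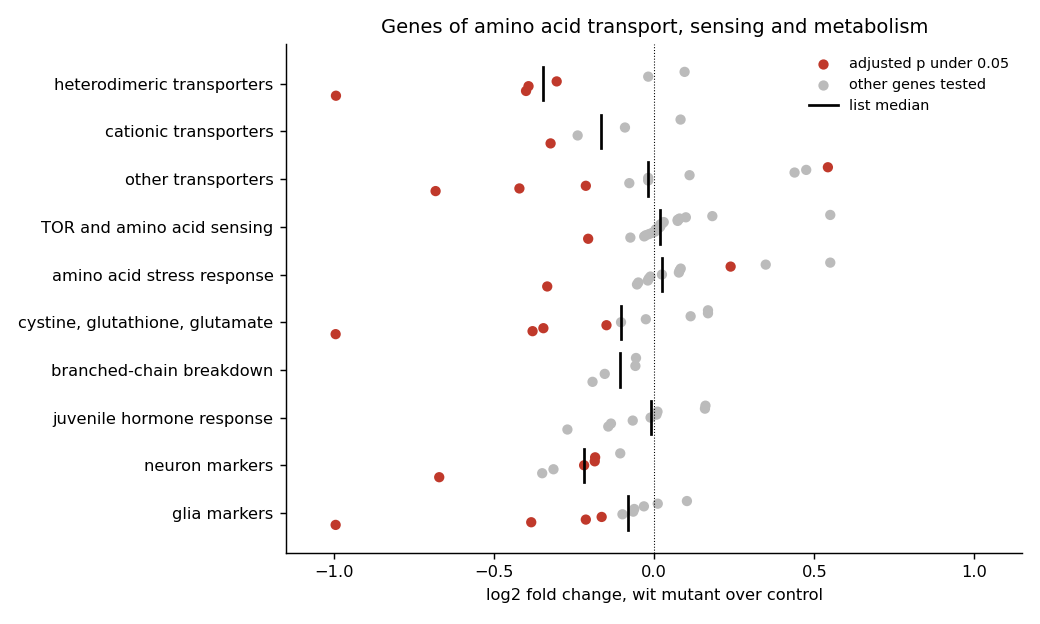
Log2 fold change (wit mutant over control) of every tested gene in each list, with red points for an adjusted p under 0.05, grey points for other genes and a black line at the list median. The heterodimeric transporters have a median of -0.35, and TOR and amino acid sensing genes one of 0.02 with 1 of 21 genes called.

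Of 7 neuronal markers 4 were lower in mutants, as were 4 of 10 glial markers, and the other markers of both lists did not pass the test. Of the 7 neuronal genes 0 were higher, the median log2 fold change was -0.22, and the summed level was lower in every mutant library than in any control. The vesicular glutamate transporter gene VGlut had -0.67 (edgeR adjusted p = 6.99e-07), the synaptic vesicle gene nSyb had -0.22 (0.0136), Syt1 had -0.19 (0.0326) and the active zone gene brp had -0.18 (0.0293). Syt1 and brp missed the threshold without control replicate 2, 3 or 4 or wit replicate 2 or 4 (0.0793 to 0.102 for Syt1 and 0.0655 to 0.0925 for brp), while the pan-neuronal gene elav had -0.11 (0.0918). Of the 10 glial genes 0 were higher, and the median was -0.08. Besides Eaat1 and Gs2 the lower glial markers were wrapper, with -0.38 (edgeR adjusted p = 3.62e-05), and the septate junction gene Nrx-IV, with -0.16 (0.00895). The pan-glial gene repo had -0.07 (0.247). The part of these cell types in the transporter differences was not tested.

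Of 5 neuroblast markers grh was lower (-0.16, edgeR adjusted p = 0.0424, missed without any 1 control replicate or without wit replicate 2 or 3 at 0.0504 to 0.127), and their sum was 220 to 249 CPM in mutants and 231 to 247 CPM in controls. Of 7 fat body markers apolpp was lower (-0.34, edgeR adjusted p = 0.00181), and their sum, mostly apolpp, was 584 to 619 CPM in mutants and 675 to 826 CPM in controls. The other 6 fat body markers did not pass the test and had higher means in mutants, and the list median was 0.21. Hemocyte markers summed to 4.59 to 9.001 CPM in mutants and 9.44 to 16.6 CPM in controls, with PPO2 lower (-1.10, edgeR adjusted p = 0.0419, missed without any 1 library other than control replicate 2 at 0.0505 to 0.101) and NimC1 near 0. Muscle markers summed to 3.26 to 13.4 CPM in mutants and 3.31 to 8.42 CPM in controls, with 0 of 4 tested called by edgeR, DESeq2 or limma-voom and 0 at an unadjusted p under 0.05. Tracheal markers summed to 144 to 188 CPM in mutants and 138 to 164 CPM in controls, with Gasp higher (0.59, edgeR adjusted p = 0.0457, missed without control replicate 2, 3 or 4 or wit replicate 2, 3 or 4 at 0.0722 to 0.118). The listed markers PPO1 of hemocytes, wupA of muscle and btl of trachea were not analysed here. The part of these cells in the transporter values was not tested.

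For each member the 3 genes with the most similar pattern were taken by Pearson's r of log2 CPM over the 8 libraries, among 7619 tested genes that averaged at least 5 CPM. The members themselves were left out of these genes, so they were not compared with each other. As the libraries fall into 2 genotypes, r for a member that differs between them is set largely by that difference. It is scaled, so it does not compare the sizes of differences. For gb, whose genotypes overlapped, r mostly follows variation between libraries of the same genotype. These values of r are given as a description. CG1607 was nearest to Proc, the gene of the neuropeptide proctolin, to CG13506 and to CG8012 (r of 0.997 for each). Proc was at 217 ± 31.2 CPM in mutants and 538 ± 11.4 CPM in controls. CD98hc was nearest to 2 of the same genes, CG8012 and CG13506 (0.994 for each), and to bdl (0.992), which encodes a surface protein of the immunoglobulin family. Log2 fold changes were -1.72 for CG8012, -0.99 for CG13506 and -0.65 for bdl, against -0.39 for CD98hc.

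The nearest genes of sbm were 5-HT1A, a serotonin receptor gene (r of 0.986), RFeSP, a mitochondrial complex III subunit gene (0.982), and Rh50, of the ammonium transporter family (0.982). Those of JhI-21 were CG7841 (0.984), the cytochrome P450 gene Cyp9h1 (0.983) and tbc (0.972). For mnd they were the tyrosine kinase gene Shark (0.964), CG15098 (0.963) and arx (0.960), which were higher in mutants with log2 fold changes of 0.17, 0.22 and 0.48. For gb they were ND-MNLL (0.957), CG45089 (0.921) and CrebB (0.919), none of which passed edgeR's test.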

How the data were processed

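Each library has 1 deposited table of estimated counts per gene. The submitters' processing notes name kallisto 0.43.0, DESeq2 and the BDGP6 build, but give them no roles, and the step from transcripts to genes is not given in the sources used. Per the labels' protocols, libraries were made with a stranded mRNA kit and read from both ends over 42 bp. Non-whole values, 30.9% of all in the deposited tables (tolerance 1e-06), were rounded. Symbols came from a table of gene identifiers (13948 of 14175 named), positions and transcript lengths from Ensembl for the same assembly, and 129 of 134 list entries matched. Members, lists and the rule for named genes were chosen with earlier results of these data known. The rule named all members, up to 3 called genes per pathway list by smallest adjusted p, every called marker, and 3 most similar genes per member. Other named genes (acs, Cth, slif, Eaat2, Gcn2, Sesn, Thor, mTor, Kr-h1, elav, repo, PLCXD, Gss1, Gss2, NimC1, Ilp2, Ilp3 and Ilp5) were chosen after their values were seen.

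Low genes were removed with edgeR 4.0.16 (filterByExpr, minimum count 10), and libraries were scaled by TMM. Genotype was tested with edgeR's robust quasi-likelihood test without covariates, two-sided, with Benjamini-Hochberg adjustment over all tested genes. CPM used TMM-scaled totals. Log2 CPM used a prior count of 2. The labels call the libraries biological replicates. Libraries of a genotype differed by more than sampling noise (chi-square per degree of freedom 3.69 to 34.3), so none was a duplicate. The test was run on simulated counts first. R 4.3.3, limma 3.58.1, DESeq2 1.42.0 and matplotlib 3.10.9 were also used. The detection limit of 3 counts covers counting error only, whereas the SEs and 95% intervals come from the quasi-likelihood fit. Sequences were not analysed here.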

Additional observations from a re-analysis of the deposited data

How the results depend on the processing

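Over 14 alternatives (other scaling, tests, count filters, a replicate block and 1 library left out at a time) CD98hc, CG1607, sbm and JhI-21 kept their direction and their call. With 1 library left out, log2 fold changes ran from -0.43 to -0.36 for CD98hc, -1.06 to -0.93 for CG1607, -0.48 to -0.35 for sbm, -0.35 to -0.27 for JhI-21, 0.08 to 0.11 for mnd and -0.041 to 0.00486 for gb, which turned above 0 without wit replicate 4. For mnd the log2 fold change was 0.11 with limma-voom, which called it (adjusted p = 0.0291), and adjusted p otherwise ran up to 0.194. The ratio of heavy to light chains differed between mutants and controls by -0.000624, by 0.00183 with the longest transcripts and by 0.009 without length scaling.

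Counts over many genes depended more on the processing, and the cause was not tested. Genes higher in wit mutants numbered 562, against 301 with the replicate block, 989 with limma-voom and 304 to 1060 with 1 library left out, and genes lower in wit mutants numbered 795, against 524 to 1124 with 1 library left out. Called genes of the 7 pathway lists numbered 12, against 4 with the replicate block, 19 with limma-voom and 4 to 21 with 1 library left out (21 without wit replicate 1, and 4 without control replicate 2 or 3). Of 22 called list and marker genes, 9 kept their call under every alternative run and 13 lost it with at least 1 library left out. Same-numbered mutant and control libraries did not deviate together (correlations of -0.31 to 0.041), so replicate numbers were not taken as pairs, and 0 of 4 mutant libraries correlated best with their own number.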

Other observations

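The 20 tested genes nearest to each member on its chromosome arm, 10 on each side, gave a description of its surroundings. Near CG1607 0 were called higher and 2 lower in mutants, near CD98hc 4 were higher and 1 lower, near sbm 1 was higher and 3 lower, and near JhI-21 1 was higher and 2 lower. Near mnd and near gb 2 were higher and 1 lower. Median log2 fold changes of these neighbours were -0.03 for CG1607, 0.07 for CD98hc, -0.10 for sbm, 0.04 for JhI-21, -0.01 for mnd and 0.12 for gb.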
